A study of Mus musculus with 19 samples.

Results

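Transcription factors of the eye field and of retinal progenitors were followed in ipsilateral and contralateral retinal ganglion cells (RGCs) of the embryonic mouse retina. The 9 factors are Pax6, Rax, Six3, Six6, Meis1, Meis2, Nr2e1, Nr2f1 and Nr2f2. They were found by matching the Ensembl identifiers of the count tables to the GRCm38 annotation, and they are 9 of the 47069 genes in the tables. All 9 passed the filter on low counts and were among the 15941 genes tested.

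The study compared RGCs whose axons stay on the same side of the brain (iRGCs) with RGCs whose axons cross the midline (cRGCs). All libraries came from retinas of C57/DBA F1 embryos at E16.5, with males and females pooled and the genotype labelled WT, and all carried the Sun1-GFP reporter behind a stop cassette in the Rosa26 locus. iRGCs were GFP-positive cells sorted from embryos with Slc6a4-Cre, a transgenic line (ET33) in which regulatory sequence of the serotonin transporter gene drives Cre. cRGCs were GFP-positive cells sorted from embryos with Pou4f2-Cre, in which Cre was targeted into the Brn3b locus, after the ventrotemporal retina had been dissected away. Pou4f2-Cre marks most RGCs, so the cRGC population was defined by the driver together with the dissection, and a cell keeps the GFP mark once Cre has acted in it or in a cell it descends from. There were 3 libraries of each population, with 28193178, 29759011 and 30874653 reads counted on genes in iRGCs and 28274471, 30454674 and 33638083 in cRGCs. The labels do not say whether the libraries came from separate litters, so the p-values measure the spread between these samples.

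The eye field is the region of the anterior neural plate from which both eyes form, and it is set up by a network of transcription factors that includes Pax6, Rax, Six3, Six6 and Nr2e1. Several of the same factors later keep retinal progenitors dividing and able to form each retinal cell type, while the nuclear receptors Nr2f1 and Nr2f2 pattern the optic vesicle and Meis1 and Meis2 act upstream of Pax6 in eye tissue. Pax6 is also kept in RGCs, amacrine cells and horizontal cells after they leave the cell cycle. Most of the others are better known from progenitors, although Six6, Six3, Meis2 and Nr2f factors also occur in postmitotic retinal neurons.

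The promoters of Six3, Six6 and Nr2e1 are printed because Six3 and Six6 are close relatives whose transcripts differed in opposite directions between the populations, and because Nr2e1 had the largest difference of the 9. Each run is the 250 bases before the RefSeq transcription start on GRCm38.p6, 5′ to 3′ on the gene's strand. Capitals mark matches to CCAAT, the CCAAT box, or its reverse complement ATTGG, and to TGACAG, the core bound by MEIS and PKNOX proteins, or its reverse complement CTGTCA.

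Six3, chr17:85620584-85620833, plus strand: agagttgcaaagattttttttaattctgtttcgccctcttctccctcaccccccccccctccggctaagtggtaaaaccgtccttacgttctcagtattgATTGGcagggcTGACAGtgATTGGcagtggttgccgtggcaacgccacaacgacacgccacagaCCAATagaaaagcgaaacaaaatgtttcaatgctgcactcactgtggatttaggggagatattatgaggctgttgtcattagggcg

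Six6, chr12:72939632-72939881, plus strand: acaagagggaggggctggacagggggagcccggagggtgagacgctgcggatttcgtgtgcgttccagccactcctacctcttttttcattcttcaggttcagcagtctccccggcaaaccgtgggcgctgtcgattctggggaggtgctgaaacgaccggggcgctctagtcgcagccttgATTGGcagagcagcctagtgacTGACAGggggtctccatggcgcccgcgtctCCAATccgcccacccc

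Nr2e1, chr10:42583591-42583840, minus strand: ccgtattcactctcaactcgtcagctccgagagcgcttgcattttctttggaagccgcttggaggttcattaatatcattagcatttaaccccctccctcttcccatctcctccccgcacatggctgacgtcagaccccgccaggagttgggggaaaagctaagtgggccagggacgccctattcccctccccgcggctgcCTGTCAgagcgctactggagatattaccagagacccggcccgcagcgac

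The RefSeq table held 10 promoters for 8 of the 9 factors, with more than 1 for Pax6 and Nr2f1. The letters TGACAG, read on both strands, were found in 4 of the 10 promoters (of Pax6, Nr2e1, Six6 and Six3), beside 15.9% of all 32851 promoters of the same length, and CCAAT in 6 of the 10, beside 33.8%. TAATTA, a homeodomain core, stood in none of the 10 and in 4.84% of all promoters, and AGGTCA, a core bound by nuclear receptors, in none of the 10 and in 14.0%. The longest run shared by the Six3 and Six6 promoters was TTGATTGGCAG, of 11 bases, on the same strand. It starts 153 bases before the start of Six3 and 71 bases before that of Six6, contains 1 of the CCAAT matches of each, and stands in 11 of the 32851 promoters. This run was looked for after the values of the genes had been seen. These matches are a description of the letters and not of binding.

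Levels are given as CPM, in which each gene's count is divided by the TMM-scaled size of its library. Log2 fold changes compare iRGCs with cRGCs, are positive where iRGCs were higher, and stand with their SE. A gene was called at an adjusted p under 0.1 in edgeR's quasi-likelihood test, adjusted by Benjamini-Hochberg over all tested genes. Of the 9 factors, 6 were higher in iRGCs, 1 was lower and 2 were not past the threshold. Calls were common in this comparison, since 46.4% of all tested genes were called, 23.3% as higher and 23.1% as lower in iRGCs. Nr2e1, Rax and Meis2 were higher by more than 1 on the log2 scale, as were 12.1% of tested genes, and no factor was lower by as much, against 11.0% of tested genes. The libraries of the populations did not overlap for 7 of the 9 factors, and for 55.3% of all tested genes. The median log2 fold change of the 9 was 0.75, beside -0.003 over all tested genes. Summed over the 9 factors, the level was 2339, 2441 and 2358 CPM in the iRGC libraries and 1899, 1827 and 1983 CPM in the cRGC libraries.

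**Figure D1:**
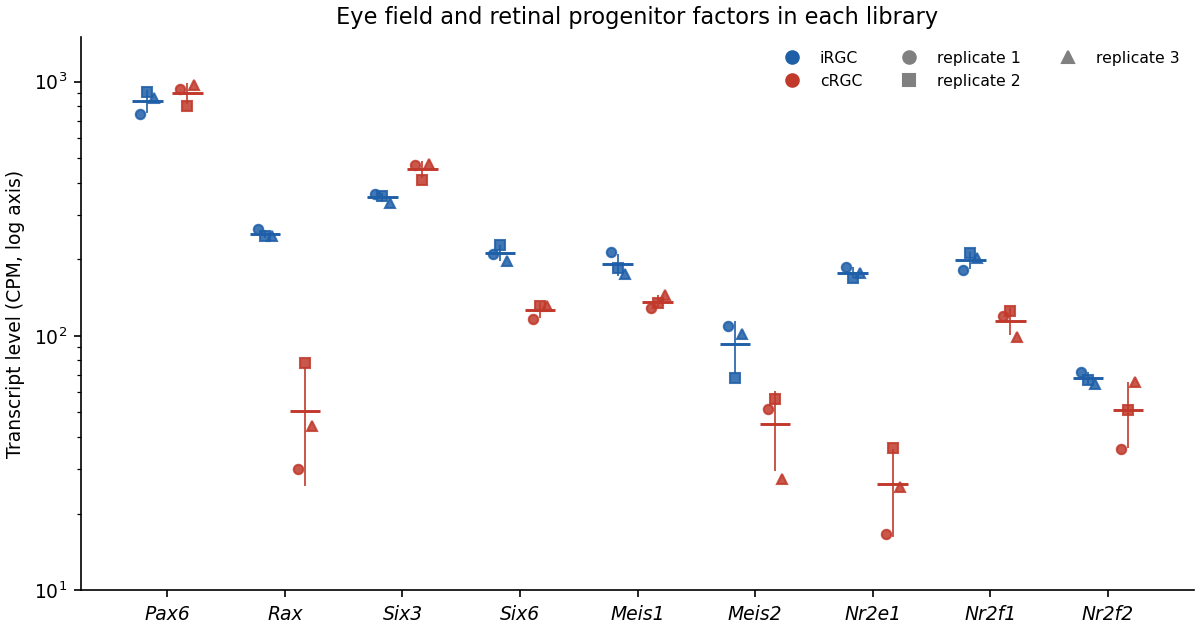
Transcript level in CPM, on a log axis, of each of the 9 factors in each library, with 3 iRGC libraries in blue and 3 cRGC libraries in red. Bars give the mean and vertical lines the SD over the 3 libraries of a population, and the libraries are fully apart for every factor but Pax6 and Nr2f2.

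Before the factors are described, the identity of the libraries has to be set beside their labels. Zic2, the transcription factor of the ipsilateral projection, was at 133, 173 and 157 CPM in iRGCs and at 57.0, 60.2 and 65.7 CPM in cRGCs (log2 fold change 1.34 ± 0.128, adjusted p = 0.000209). Pou4f1 and Isl2, factors of contralateral RGCs, were lower in iRGCs (log2 fold changes -2.28 ± 0.279 and -2.15 ± 0.337, adjusted p = 0.0004 and 0.00117). Slc6a4, the gene after which the iRGC driver is named, was at 2.06, 33.4 and 116 CPM in iRGCs and at 48.1, 35.4 and 30.5 CPM in cRGCs, which was not a difference past the threshold (0.41 ± 0.929, adjusted p = 0.768). Replicate 1 of the iRGCs thus had less Slc6a4 than any cRGC library. Without it, the 9 factors still gave 6 higher and 1 lower, with log2 fold changes of 2.72 for Nr2e1, 2.28 for Rax, 0.92 for Meis2, 0.85 for Nr2f1, 0.75 for Six6, 0.41 for Meis1, 0.37 for Nr2f2, -0.03 for Pax6 and -0.39 for Six3.

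Markers of progenitors and of RGCs differed widely between the populations as well. All 9 progenitor markers were higher in iRGCs, with a median log2 fold change of 2.55, and their summed level was 8233, 6965 and 6122 CPM in iRGCs and 679, 1858 and 1127 CPM in cRGCs. The most abundant of them were Ccnd1, the cyclin D1 gene (2844 ± 453 against 509 ± 253 CPM), Fgf15 (1309 ± 268 against 197 ± 95.4 CPM), which also had the largest difference (2.73 ± 0.352), and Top2a (977 ± 188 against 164 ± 82.6 CPM). Of 11 RGC markers, 10 were lower in iRGCs and none was higher, with a median of -1.94. Their summed level was 2248, 3159.5 and 4865 CPM in iRGCs and 12653, 11503 and 14019 CPM in cRGCs, with the neurofilament genes Nefm (639 ± 295 against 2253 ± 515 CPM) and Nefl and the growth cone gene Gap43 as the most abundant. In bulk samples such as these, fewer cells of a type and less RNA per cell cannot be told apart, and the part of these cell types in the differences of the 9 factors was not tested.

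Nr2e1, the orphan nuclear receptor also called Tlx that keeps retinal and neural progenitors proliferating, showed the largest difference of the 9. Its level was 186, 169 and 176 CPM in the iRGC libraries and 16.6, 36.2 and 25.5 CPM in the cRGC libraries. Every iRGC library was far above every cRGC library, and the cRGC libraries differed among themselves more, in proportion, than the iRGC libraries. The means were 177 ± 8.87 and 26.1 ± 9.81 CPM (SD, n = 3 each), a 6.78-fold difference (log2 fold change 2.76 ± 0.249, adjusted p = 0.000205). The gene lies at chr10:42561963-42583632 on the minus strand and shares no exonic base with another annotated gene.

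Rax, the homeobox gene without which no optic vesicle forms, stood next. It was at 262, 246 and 247 CPM in iRGCs and at 29.8, 78.4 and 44.0 CPM in cRGCs. The iRGC libraries lay close together, while cRGC replicate 2 was the highest of its population for Rax as for Nr2e1. The means of 252 ± 8.96 and 50.7 ± 25.0 CPM gave a 4.96-fold difference (2.31 ± 0.301, adjusted p = 0.000494). Without cRGC replicate 2 the log2 fold change was 2.78 for Rax and 3.09 for Nr2e1. Rax lies at chr18:65928277-65939787 on the minus strand, and 27.4% of its exonic bases are shared with Raxos1, an antisense RNA counted at 1.36 CPM or less in each library.

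In the cRGC libraries the order of Rax and Nr2e1 (replicate 2 above replicate 3 above replicate 1) was also the order of the summed progenitor markers given above. Sox2, a progenitor factor, was at 22.6, 63.4 and 39.5 CPM in the 3 cRGC libraries. With 3 libraries this order is a description.

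Pax6, the paired-box master regulator of eye development, did not pass the threshold. Its level was 742, 911 and 860.4 CPM in iRGCs and 932, 804 and 972 CPM in cRGCs. The populations overlapped, and iRGC replicate 1 and cRGC replicate 2 were the lowest of their groups. With means of 838 ± 86.5 and 902 ± 87.8 CPM the log2 fold change was -0.11 ± 0.120 (adjusted p = 0.528), with a 95% interval from -0.38 to 0.17 that leaves out a difference as large as that of any of the 6 factors called higher. Pax6 lies at chr2:105668900-105697364 on the plus strand. It shares no exonic base with another annotated gene.

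Six3, a homeodomain repressor that protects the forebrain and eye field from posterior signals, was the only factor of the 9 that was lower in iRGCs. It was at 362, 355 and 334 CPM in iRGCs and at 468, 411 and 475 CPM in cRGCs. Every cRGC library was above every iRGC library, with cRGC replicate 2 nearest to them. The means were 350.3 ± 15.0 and 451 ± 35.2 CPM (-0.37 ± 0.102, adjusted p = 0.0194). The gene lies at chr17:85613608-85629302 on the plus strand.

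Six6, the paralogue of Six3 that sustains progenitor proliferation in the retina, differed the other way. Its level was 210.3, 227 and 197 CPM in iRGCs and 116, 131 and 131 CPM in cRGCs. The groups were fully apart and the spread within each was small. The means of 212 ± 15.2 and 126 ± 8.24 CPM gave a log2 fold change of 0.75 ± 0.106 (adjusted p = 0.000718). Six6 lies at chr12:72939892-72944899 on the plus strand, and its printed promoter shares the 11-base run above with that of Six3.

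The ratio of Six6 to Six3 counts per kilobase of exon, taken inside each library and so free of library scaling, was 0.789, 0.870 and 0.802 in iRGCs and 0.338, 0.432 and 0.373 in cRGCs. Six6 transcripts stood below Six3 transcripts in every library, and nearer to them in iRGCs. The mean ratio was 0.820 ± 0.0434 in iRGCs and 0.381 ± 0.0478 in cRGCs, a log2 difference of 1.11. In an exact two-sided permutation test p was 0.1, which is the smallest p that 3 libraries against 3 allow. The exons of Six3 and Six6 share no window of 50 bases.

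Meis1 and Meis2 encode TALE homeodomain proteins that form complexes with PBX proteins on DNA. Meis1, at chr11:18879817-19018985 on the minus strand, was at 213, 185 and 176 CPM in iRGCs and at 129, 135 and 145 CPM in cRGCs (0.49 ± 0.111, adjusted p = 0.00742). Meis2, at chr2:115863064-116065839 on the minus strand, was at 109, 68.3 and 101 CPM in iRGCs and at 51.6, 56.2 and 27.3 CPM in cRGCs (1.05 ± 0.275, adjusted p = 0.0149). Neither gene's populations overlapped, but for Meis2 iRGC replicate 2 came near to the cRGC libraries and cRGC replicate 3 was far below the other two. Of the exonic bases of Meis1, 18.3% are shared with other annotated genes, and of those of Meis2 none.

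The Meis1 to Meis2 ratio per kilobase was 2.23, 3.10 and 1.98 in iRGCs and 2.86, 2.74 and 6.07 in cRGCs. The ratio of cRGC replicate 3 stood far above the rest, and the log2 difference of -0.60 gave p = 0.3 in the exact permutation test of 3 libraries against 3. Meis1 and Meis2 transcripts share no window of 50 bases.

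Nr2f1 and Nr2f2 encode the orphan nuclear receptors COUP-TFI and COUP-TFII. Nr2f1, at chr13:78188973-78199757 on the minus strand, was at 182, 212 and 202 CPM in iRGCs and at 119.9, 125 and 99.1 CPM in cRGCs. The populations were apart (0.79 ± 0.123, adjusted p = 0.00109). Nr2f2, at chr7:70351944-70366735 on the minus strand, was at 72.2, 67.3 and 64.7 CPM in iRGCs and at 36.1, 51.0 and 65.8 CPM in cRGCs. Here cRGC replicate 3 lay within the iRGC range and the other cRGC libraries below it, and the log2 fold change of 0.42 ± 0.200 was not past the threshold (adjusted p = 0.134, 95% interval -0.04 to 0.87). Without cRGC replicate 3 it was 0.65 with an adjusted p of 0.0377, and without cRGC replicate 1 it was 0.22 with an adjusted p of 0.352.

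The ratio of Nr2f1 to Nr2f2 per kilobase was 4.26, 5.34 and 5.29 in iRGCs and 5.63, 4.16 and 2.55 in cRGCs, and the groups overlapped (log2 difference 0.34, p = 0.6 in the exact permutation test of 3 libraries against 3). Without cRGC replicate 3 the difference was 0.03. Their transcripts share 10 windows of 50 bases, 0.196% of those of Nr2f1 and 0.117% of those of Nr2f2.

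**Figure D2:**
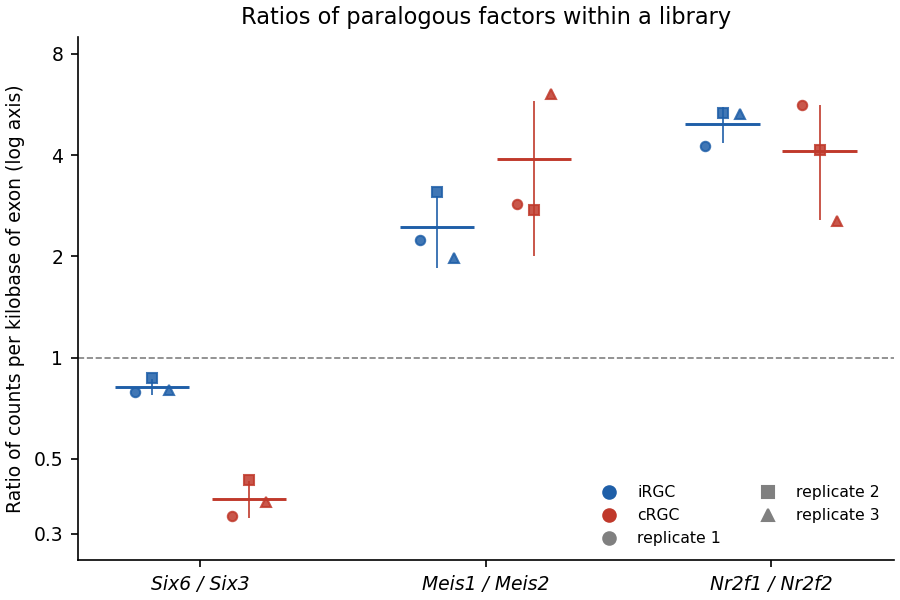
Ratio of counts per kilobase of exon for 3 pairs of related factors in each library, on a log axis, with iRGC libraries in blue and cRGC libraries in red. Horizontal bars give the mean and vertical lines the SD over 3 libraries, the dashed line marks equal levels, and the Six6 to Six3 ratios of iRGCs (0.789 to 0.870) lie above those of cRGCs (0.338 to 0.432).

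**Figure D3:**
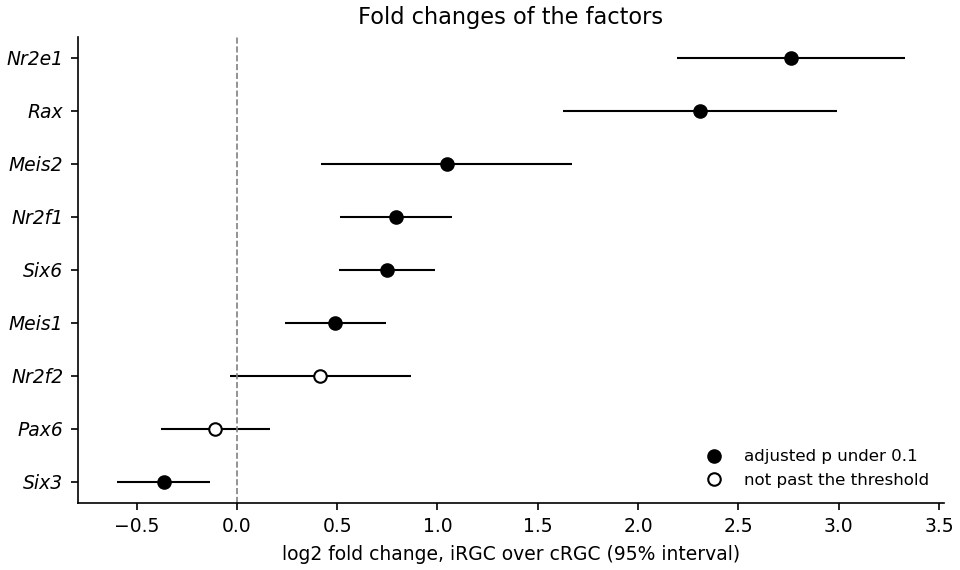
Log2 fold change of iRGCs over cRGCs for each of the 9 factors, with the 95% interval of the edgeR fit as a horizontal line. Filled points passed an adjusted p of 0.1, and the range runs from -0.37 for Six3 to 2.76 for Nr2e1.

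Compared per kilobase of exon, the order of the levels in iRGCs was Pax6 (71.7 ± 7.40 CPM per kilobase), Six3 (64.3 ± 2.75), Six6 (52.8 ± 3.78), Nr2e1 (47.7 ± 2.39), Rax (43.1 ± 1.53), Nr2f1 (39.0 ± 3.03), Meis1 (18.2 ± 1.83), Nr2f2 (7.89 ± 0.442) and Meis2 (7.72 ± 1.79). Pax6 and Six3 did not differ beyond the SD over libraries, nor did Nr2f2 and Meis2, and the libraries of Six6 and Nr2e1 overlapped. In cRGCs the order was Six3 (82.9 ± 6.46 CPM per kilobase), Pax6 (77.2 ± 7.51), Six6 (31.4 ± 2.05), Nr2f1 (22.5 ± 2.70), Meis1 (12.9 ± 0.757), Rax (8.68 ± 4.27), Nr2e1 (7.02 ± 2.64), Nr2f2 (5.91 ± 1.72) and Meis2 (3.74 ± 1.29). Six3 and Pax6 again did not differ beyond the SD, nor did Meis1 and Rax, Rax and Nr2e1, or Nr2e1 and Nr2f2. The cRGC libraries of Nr2f2 and Meis2 overlapped, although their means differed beyond the SD. Nr2e1 and Rax stood above Nr2f1 and Meis1 in iRGCs and below both in cRGCs, by a margin within the SD for Rax against Meis1. The order depends on the length used, and per kilobase of the longest transcript Nr2e1 stood below Nr2f1 in both populations.

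Genes that overlap a factor or lie within 10 kb of it bear on what its counts hold. There were 35 of them in the annotation, 25 of them tested, of which 3 were higher and 2 were lower in iRGCs. Over all tested genes 23.3% were higher and 23.1% were lower, so calls were not more common among these neighbours. The gene on the opposite strand of Six3, the long noncoding RNA Six3os1, was among the higher. It was at 803, 794 and 637 CPM in iRGCs and at 470.4, 494 and 464 CPM in cRGCs (0.64 ± 0.116, adjusted p = 0.00231), so that Six3 and Six3os1 differed in opposite directions. The count of Six3os1 was 2.21, 2.24 and 1.91 times that of Six3 in the iRGC libraries and 1.01, 1.20 and 0.978 times in the cRGC libraries, without regard to length. They share 1.95% of the exonic bases of Six3, and whether the counting used strand is not given in the sources used here. Gm28528, another antisense RNA over Six3, was at 2.90 ± 1.14 and 2.85 ± 0.266 CPM, and Gm27275, Gm27502 and Gm27427, small RNAs within the gene, had means between 0.831 and 1.54 CPM. None of the 4 passed the threshold.

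Around Pax6, the long noncoding RNA Paupar, 7557 bases away, was lower in iRGCs, at 10.9, 9.92 and 7.82 CPM against 14.3, 17.6 and 26.1 CPM (-1.02 ± 0.270, adjusted p = 0.0155). Elp4, a gene of the Elongator complex whose introns are known to hold Pax6 enhancers, was higher, at 58.2, 49.6 and 50.4 CPM against 31.8, 36.6 and 40.1 CPM (0.54 ± 0.140, adjusted p = 0.0136). Pax6os1, antisense to Pax6, was at 8.94, 6.0 and 6.46 CPM in iRGCs and at 0, 3.00 and 0.484 CPM in cRGCs, and missed the threshold (2.61 ± 1.13, adjusted p = 0.101). The libraries did not overlap for any of these 3 neighbours, as for 55.3% of all tested genes, while those of Pax6 itself did. With so large a share, the lack of overlap does not set these neighbours apart.

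Beside Nr2e1, Ostm1, which encodes a lysosomal membrane protein, starts 190 bases away on the other strand, inside the promoter window printed above. It was lower in iRGCs, at 33.0, 41.4 and 46.9 CPM against 67.2, 67.8 and 62.3 CPM (-0.70 ± 0.149, adjusted p = 0.00528), while Nr2e1 was higher. Downstream of Six6, the long noncoding RNA Gm26709 was higher in iRGCs, as Six6 was, at 12.8, 15.4 and 9.08 CPM against 2.23, 4.80 and 5.58 CPM (1.56 ± 0.389, adjusted p = 0.0116). The other neighbours with at least 1 CPM did not pass the threshold. They were 4930447C04Rik on the opposite strand of Six6 (42.2 ± 6.28 and 36.1 ± 7.19 CPM), A830082K12Rik antisense to Nr2f1 (24.0 ± 6.13 and 24.2 ± 2.50 CPM), Gm38170 near Six6, and Gm37818, 2900018N21Rik, 2610001A08Rik and Gm16140 within Meis1.

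**Figure D4:**
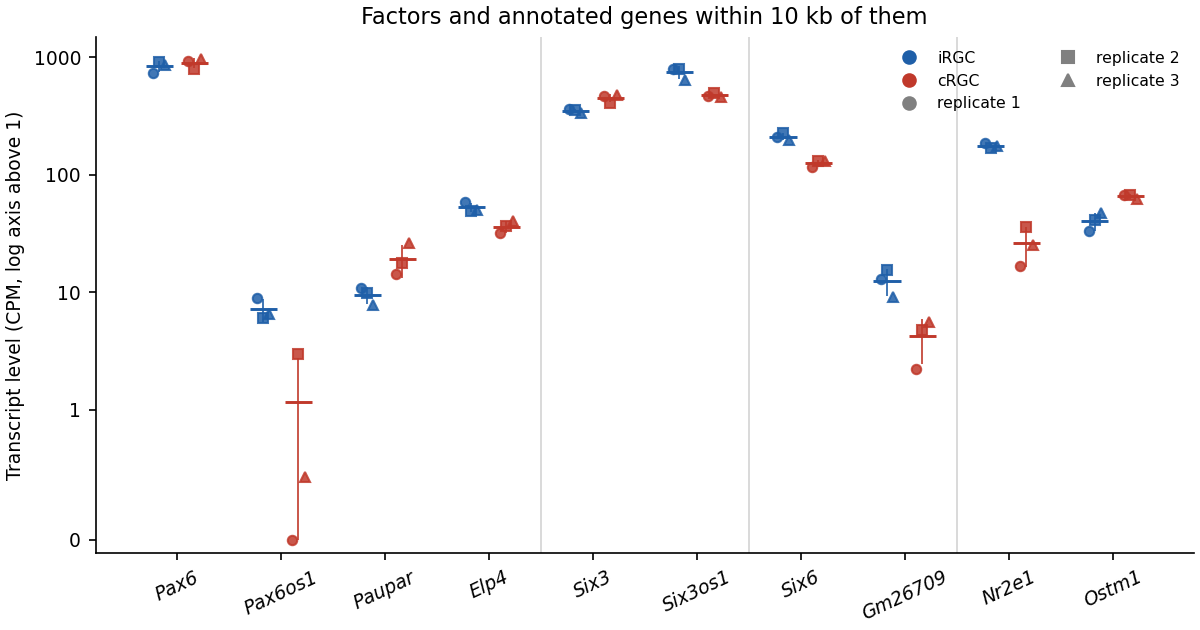
Transcript level in CPM of Pax6, Six3, Six6 and Nr2e1 and of neighbouring genes in each library, on an axis that is logarithmic above 1 and linear below, with iRGCs in blue and cRGCs in red. Bars give the mean and vertical lines the SD over 3 libraries, with the line of Pax6os1 in cRGCs ended at 0, and Six3os1 (745 ± 93.2 against 476 ± 15.9 CPM) is higher in iRGCs where Six3 is lower.

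The wider network was read from lists of partners, corepressors, targets and other early eye factors. Of 61 such genes 59 were tested, 29 were higher and 11 were lower in iRGCs, with a median log2 fold change of 0.43. Of the 10 genes of the determination network in which Six3 and Six6 act (their other family members and the Eya and Dach cofactors), 2 were higher and none was lower. They were Six5 (33.4, 33.8 and 24.7 CPM against 4.00, 7.32 and 4.03 CPM, 2.58 ± 0.288) and the phosphatase gene Eya3 (0.56 ± 0.141). Dach1, the most abundant, was at 207 ± 17 and 214 ± 25.3 CPM (-0.05 ± 0.120), and Eya2 at 48.3 ± 16.3 and 66.7 ± 33.9 CPM, neither past the threshold. The median of the list was 0.21.

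TALE partners of Meis1 and Meis2 were split, with 3 of 9 higher and 3 lower and a median of 0.07. Meis3, another member of the Meis family, was lower in iRGCs, at 77.3, 75.8 and 98.4 CPM against 214, 175 and 226 CPM (-1.29 ± 0.146, adjusted p = 0.000289), and so differed in the direction opposite to Meis1 and Meis2. Pbx2 was at 124 ± 10.1 and 118 ± 19.4 CPM, not past the threshold. Tgif1, a TALE repressor, was higher (36.3 ± 1.39 against 5.87 ± 2.30 CPM, 2.63 ± 0.274).

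Among relatives of the nuclear receptors, 1 of the 3 tested, Nr2f6, was higher (75.7 ± 2.74 against 52.1 ± 12.4 CPM, 0.54 ± 0.166), with 54.4% of its exonic bases shared with another gene. Nr2c2 and Nr2c1 were at 0.06 ± 0.106 and 0.08 ± 0.127 on the log2 scale, not past the threshold, and the list's median was 0.08. Nr2e3, the photoreceptor relative of Nr2e1, had too few counts to be tested.

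Corepressors through which Six3, Six6 and the NR2 receptors act were split as well, with 4 of 13 higher, 5 lower and a median of -0.27. The Groucho gene Tle2 was higher (9.23 ± 3.73 against 1.51 ± 0.430 CPM, 2.61 ± 0.460). Bcl11b, which binds the COUP-TF receptors, was lower (log2 fold change -1.28 ± 0.393), at 10.6, 10.8 and 14.5 CPM against 44.6, 29.8 and 12.8 CPM, with cRGC replicate 3 inside the iRGC range. Hdac2, Kdm1a and Tle5 were the most abundant. Kdm1a, a histone demethylase recruited by Nr2e1, was lower (248 ± 18.7 against 312 ± 18.4 CPM, -0.33 ± 0.103), while Hdac2 (-0.25 ± 0.109) and Tle5 (-0.29 ± 0.133) did not pass the threshold.

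Of 10 genes reported as targets of the factors, 9 were higher in iRGCs and 1 was lower, with a median of 1.95. Ccnd1 was given above. Cdkn1b, the gene of the cell cycle inhibitor p27Kip1, was higher (207 ± 16.7 against 124 ± 10.9 CPM, 0.74 ± 0.113). Cdkn1a, the gene of the inhibitor p21, was lower (5.92, 17.2 and 22.3 CPM against 27.0, 32.0 and 34.7 CPM, -1.05 ± 0.400, adjusted p = 0.0677). Ccnd1 is also a progenitor marker, so this list and the marker list are not separate evidence.

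Of 15 other early eye factors tested, 11 were higher and 2 were lower, with a median of 1.79. Among the most abundant were Sox2 (258 ± 25.8 against 41.8 ± 20.5 CPM, 2.62 ± 0.318) and Otx2 (235 ± 30.5 against 45.3 ± 20.6 CPM, 2.37 ± 0.282), which specifies photoreceptor precursors among other cells. The largest difference was that of Lhx2, a LIM homeodomain factor of the eye field, at 241, 200.3 and 252 CPM in iRGCs and 27.3, 52.7 and 31.7 CPM in cRGCs (2.63 ± 0.240, adjusted p = 0.000205). Tbx5, a factor of the dorsal retina, was lower (-1.60 ± 0.614, adjusted p = 0.0686), with 60.4 CPM in cRGC replicate 3 and 5.77 to 17.4 CPM in the other libraries.

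**Figure D5:**
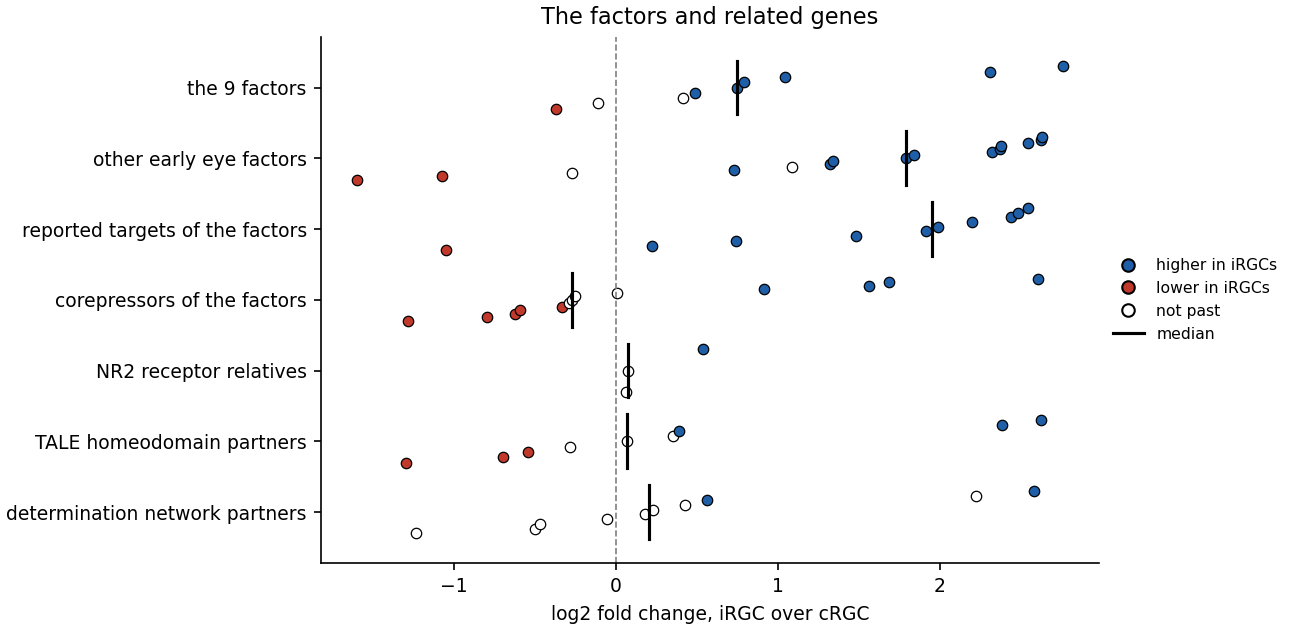
Log2 fold change of iRGCs over cRGCs for the 9 factors and for each tested gene of 6 lists of related genes, in rows. Blue and red points passed an adjusted p of 0.1 as higher and lower in iRGCs, open points did not, and black bars give the medians, from -0.27 for the corepressors to 1.95 for the reported targets, with the 9 factors at 0.75.

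Markers of other retinal cells also differed between the populations. Of 8 amacrine markers 7 were higher in iRGCs, with summed levels of 308, 261 and 371 CPM against 129, 156 and 102 CPM, led by Tfap2b (139.6 ± 41.6 against 48.0 ± 20.9 CPM). All 5 tested photoreceptor precursor markers were higher (784, 611 and 582 CPM against 98.3, 194 and 136 CPM in sum, with Otx2 the most abundant), and Rcvrn was at 0 in every iRGC library. Of 5 horizontal cell markers only Prox1 was higher (1.18 ± 0.183), and the sums were 265, 284 and 234 CPM against 240.2, 250.4 and 393 CPM with Onecut2 the most abundant. These cells are known to share Pax6, Six3, Meis or Nr2f factors with RGCs, and their part in the values above was not tested.

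Cells from outside the neural retina were also read from their markers. The 4 tested endothelial markers were higher in iRGCs, but their sum (441, 605 and 433 CPM against 85.9, 107 and 70.0 CPM) was mostly Kdr, and Pecam1 was at 9.65, 53.0 and 0.284 CPM in iRGCs and at 0, 0.725 and 0 CPM in cRGCs, with Cdh5 and Tie1 at 0 in every cRGC library. Replicate 2 of the iRGCs stood out with 157 CPM of mural markers, led by Rgs5, and 92.7 CPM of erythroid markers, led by Hbb-bs, against at most 23.7 and 15.2 CPM in any other library. Of the tested markers, 2 of 3 mural and 4 of 4 erythroid were higher in iRGCs, and the sums in cRGCs were 3.73, 4.45 and 3.74 CPM for mural and 0, 5.11 and 0.258 CPM for erythroid markers. Without that library the 9 factors again gave 6 higher and 1 lower, with log2 fold changes of 2.80 for Nr2e1, 2.33 for Rax, 1.22 for Meis2, 0.69 for Six6 and -0.37 for Six3. Of 5 tested microglial markers 3 were higher in iRGCs, with summed levels of 13, 19.9 and 15.3 CPM against 0.654, 4.18 and 1.36 CPM and Csf1r the most abundant. Of 3 tested fibroblast markers Col1a2, the most abundant, was higher, and the sums were 17.7, 27.1 and 9.21 CPM against 8.73, 10.1 and 10.2 CPM. None of 4 tested pigment epithelium markers passed the threshold (2.03, 7.63 and 3.50 CPM against 1.69, 4.04 and 2.58 CPM, Mitf the most abundant), and no lens marker had enough counts to be tested (9.83 CPM or less in each library, Cryaa the most abundant). The part of these cells in the values of the 9 factors was not tested. Of the optic stalk astrocyte list Slc1a3 was tested and higher (175 ± 27.9 against 28.0 ± 11.5 CPM), while Pax2 had means of 0.136 and 0.321 CPM.

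For each factor, the genes outside the list with the most similar pattern were taken as those with the highest Pearson r of log2 CPM over the 6 libraries, among 10275 genes. The libraries fall into 2 populations, so r mostly holds the difference between them and is a description. For Nr2e1 these genes were Inppl1, Ncaph and Tmpo (r = 0.999 for each), and for Rax they were Pdpn, Egflam and Pdzrn3 (r = 0.999 for each). For Six6 they were Tctn2, Aldh7a1 and Sox3 (r = 0.999 for each), for Meis1 C330007P06Rik, Nup85 and N4bp2, for Nr2f1 Tm9sf1, Pip5k1b and Lta4h, and for Meis2 Spata5, Ptrh2 and Sox8. For Six3 they were Insr, Kdm7a and Anapc4, all lower in iRGCs (log2 fold changes -0.34, -0.34 and -0.40). For Pax6 they were Banp, Brwd3 and Cep78, and for Nr2f2 Rhot2, Tsga10 and Med20. The number of genes with an r above 0.95 was 11 for Pax6, 24 for Nr2f2, 62 for Meis2, 144 for Six3, 365 for Nr2f1, 545 for Meis1, 1121 for Rax, 1151 for Six6 and 1322 for Nr2e1.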

How the data were processed

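Transcript counts were taken from 6 RNA-seq libraries of sorted cells, 3 per population, and the ATAC-seq data were not used here. Per the submitters' notes and the study's methods, the authors aligned reads with HISAT2 2.1.0 to mm10, counted unique reads per Ensembl gene of GRCm38 with HTSeq 0.11.1 and deposited raw counts, without normalization, 1 table per library. Whether counting used strand is not given in the sources used here, so reads of overlapping antisense genes may not be told apart. Symbols, positions and exon lengths came from GENCODE M21, which held 46574 of the 47069 identifiers, and promoter sequences from the RefSeq table for GRCm38.p6. The rows in which HTSeq tallies reads without a gene were left out of library sizes and tests. Reads overlapping no gene were 12.3% to 23.2% of the unique reads.

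The test was edgeR 4.0.16's under R 4.3.3 (filterByExpr, TMM with factors of 0.921 to 1.10, quasi-likelihood test, no covariate), adjusted by Benjamini-Hochberg over 15941 genes, at the false discovery rate of 0.1 used in the study. The SE is the absolute log2 fold change over the square root of F, and the biological coefficient of variation was 36.3%. Counting depth was 28193178 to 33638083 reads per library, and the lowest count of a factor in a library was 431. Ratios of paralogues were compared with exact permutation tests in scipy 1.17.1. Likeness used log2 CPM with a pseudocount of 0.5 among genes with a mean of at least 10 CPM. Scripts were tested on simulated data.

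The members and lists were chosen with earlier results of these data known. The genes named are the 9 factors, from each list the 3 tested genes with the highest mean CPM and the called gene with the largest log2 fold change in each direction, neighbours within 10 kb with a mean of at least 1 CPM, the genes most like each factor, and genes that check the labels, apart from results that are not reported here. The lists cover determination network partners, TALE partners, NR2 relatives, corepressors, reported targets, other early eye factors, and markers of retinal progenitors, RGCs, amacrine, horizontal, photoreceptor precursor, endothelial, mural, fibroblast, pigment epithelium, microglial, erythroid, lens and optic stalk astrocyte cells. Tle5 was found under its older symbol Aes. The alternatives were RLE and upper quartile scaling, no filter or at least 10 counts in every library, DESeq2 1.42.0 with and without a prior, limma 3.58.1 voom, the replicate number as a block, each library left out in turn, and stricter thresholds. Plots were made in Python 3.11.15 with matplotlib 3.10.9.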

Additional observations from a re-analysis of the deposited data

How the results depend on the processing

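Across 14 other fits, none of the 126 fold changes of the factors changed sign and none of the calls was lost, nor was any lost at an adjusted p under 0.05 in the edgeR fit. The log2 fold changes ran from 2.51 to 3.09 for Nr2e1, 2.03 to 2.78 for Rax, 0.79 to 1.26 for Meis2, 0.70 to 0.88 for Nr2f1, 0.69 to 0.79 for Six6, 0.41 to 0.55 for Meis1, -0.41 to -0.32 for Six3 (adjusted p up to 0.0842) and -0.17 to -0.03 for Pax6. Nr2f2 ran from 0.22 to 0.65 and passed the threshold in 3 fits, with at least 10 counts in every library (adjusted p = 0.0988), in limma voom (0.0814) and without cRGC replicate 3 (0.0377). A threshold of 1 on the absolute log2 fold change left 3688 genes called, 3 factors higher and 0 lower. Levels per kilobase of the longest transcript put 6 factors at another place in the order in iRGCs and 7 in cRGCs. By that length Nr2f1 stood above Nr2e1 in iRGCs as well as in cRGCs, so that only Rax stood above Nr2f1 in iRGCs and below it in cRGCs. With each library left out in turn, the log2 difference in ratio was 1.03 to 1.21 for Six6 over Six3, -0.80 to -0.23 for Meis1 over Meis2 and 0.03 to 0.60 for Nr2f1 over Nr2f2, and 6303 to 7603 genes were called against 7395.

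The labels do not say whether libraries with the same replicate number were prepared together. Deviations of libraries with the same number correlated at -0.014, -0.045 and -0.067, which with 3 libraries per population cannot decide it. With the replicate number as a block 6751 genes were called, with 6 factors higher and 1 lower as before, and the log2 fold change of Six3 was -0.36 (adjusted p = 0.0373) and that of Nr2f2 0.46 (adjusted p = 0.142). The median of all tested genes stayed between -0.03 and 0.03 in these fits. With 3 libraries per population, the 95% intervals of Pax6 (-0.38 to 0.17) and Nr2f2 (-0.04 to 0.87) include 0.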

Other observations

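Single genes differed among the cRGC libraries. Tbx5, a factor of the dorsal retina, was at 10.1, 17.4 and 60.4 CPM in the cRGC libraries, and Nr2f2, which is known to be enriched dorsally, was at 36.1, 51.0 and 65.8 CPM. In the same library Nr2f1 (99.1 CPM) and Meis2 (27.3 CPM) were at their lowest of all 6 libraries. Vax2, a factor of the ventral retina, was at 71.3, 65.3 and 75.0 CPM in the cRGC libraries and at 22.8, 38 and 39.6 CPM in the iRGC libraries (log2 fold change -1.07 ± 0.204, adjusted p = 0.00303), with cRGC replicate 3 close to the other cRGC libraries. Isl2, a factor of contralateral RGCs, was at 130.4, 111 and 45.7 CPM and Pou4f1 at 861, 672 and 431 CPM, each lowest in cRGC replicate 3, whereas Pou4f2 was highest there (191, 196 and 293 CPM). These genes were chosen after their values were seen, and the differences among the 3 libraries were not tested.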
